A study of Mus musculus with 8 samples.

Results

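The knockdown of RPRD1B in NIH3T3 mouse embryonic fibroblasts was examined within a set of 4 RNA-seq libraries, out of 8 deposited. The libraries were chosen by their labels and by the count table that holds them: shRPRD1B replicates 1 and 2 and shScrambled replicates 1 and 2, called set 1. The shRPRD1B cells carried short hairpin RNAs (shRNAs) against RPRD1B and the shScrambled cells carried scrambled shRNAs. All cells of both groups were selected with puromycin for at least a week, and per the labels a Western blot served as the check of knockdown before sequencing. Set 2 holds replicates 3 and 4 of the same groups. It is used here to read the set 1 genes in other libraries and in fits of all 8 libraries, which test where the knockdown effect differs between sets. The labels do not say what separates the sets, how many hairpins were used, or whether replicates are separate cultures, so p-values measure the spread between libraries, which may be technical. Hairpin sequences were not used here. The question was which RNAs differ in level when RPRD1B is knocked down.

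RPRD1B attaches to RNA polymerase II by its C-terminal domain (CTD), the repeated tail of the enzyme whose phosphorylation changes as the polymerase starts, elongates and ends a transcript. Proteins of the RPRD family, RPRD1A, RPRD1B and RPRD2, read phosphorylated forms of this tail and are known to bring in a phosphatase that removes phosphate from it. NIH3T3 cells are a line of mouse fibroblasts, cells that secrete collagens and other extracellular matrix, respond to growth factors and can take on a contractile state. The RNA was bulk total RNA, copied with random hexamers, so RNAs without a poly(A) tail were also measured. In bulk RNA a change in the share of cells with a transcript and a change in its level per cell cannot be told apart.

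The shRPRD1B libraries held 14124534 and 15225103 counts and the shScrambled libraries 13872603 and 14032101. The number of genes detected ran from 14033 to 14274 per library. Across genes, log2 CPM (counts divided by the TMM-scaled library total, per 1e6) correlated at 0.995 between replicates of a group and at 0.993 between groups. The floor for a gene with no reads, taken as 3 counts, was 0.197 to 0.216 CPM, which covers counting error only. All 12 fibroblast markers were tested, with Col1a1 at 982 and 996 CPM in shRPRD1B libraries and at 984 and 1010.4 CPM in shScrambled libraries. None of the 12 epithelial markers reached the count needed for a test, and their summed level was 0.348 and 0.588 CPM in shRPRD1B libraries and 0.145 and 0.724 CPM in shScrambled libraries. Pecam1 and Syt1, and the muscle regulators Myod1 and Myog, were at 0 in all 4 libraries, and the leukocyte gene Ptprc did not exceed 0.139 CPM. Other members of the same marker lists were present in all 4 libraries. The endothelial-listed Flt1 had 27.9 to 31.3 CPM, the muscle-listed Tnnt2 39.1 to 44.6 CPM and the leukocyte-listed Cd68 3.62 to 5.08 CPM. The neural-listed Syn1 and Snap25 had 20.2 to 25.6 CPM and 10.3 to 14.1 CPM. The ribosomal precursor entry Rn45s took 4.99% and 5.72% of counts in the shRPRD1B libraries and 6.94% and 7.44% in the shScrambled libraries.

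Rprd1b messenger RNA was lower in shRPRD1B cells, and neither of its relatives passed the test. Rprd1b had 26.2 and 27.8 CPM in the shRPRD1B libraries, against 41.9 and 43.9 CPM in the shScrambled libraries. The means were 27.0 ± 1.14 CPM and 42.9 ± 1.41 CPM (SD, n = 2 each), a fall by 37.1%, and the groups did not overlap. The log2 fold change, shRPRD1B over shScrambled, was -0.67 ± 0.09 (SE), with an adjusted p of 3.15e-09 by edgeR's quasi-likelihood test with Benjamini-Hochberg adjustment over all genes tested, which is the test behind every adjusted p here unless another is named. The exact two-sided permutation p over the 4 libraries was 0.333, and with 6 possible assignments it cannot be lower. RefSeq GRCm38.p6 places Rprd1b on chromosome 2 from 158028475 to 158078207, where it overlaps Tti1, and the library kit is not described as stranded, so reads of overlapping genes cannot be told apart.

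Genes were tested where their count averaged 10 or more in these libraries, which held for 11585 of 23420 entries, and 563 were called at an adjusted p under 0.05 (4.86%). Of these, 311 were higher in shRPRD1B cells (2.68%) and 252 were lower (2.18%). Most of the changes were small. The median size of a called change was 0.31 on the log2 scale, against 0.10 over all genes tested. A total of 194 called genes moved by less than 0.25, and 43 moved by at least 1, of which 31 were higher and 12 lower. In all 563 called genes both shRPRD1B libraries lay outside the range of both shScrambled libraries, which also held for 5249 of all genes tested (45.3%), so that separation is not repeated for each called gene below. DESeq2 called 140 genes (1.21%), 82 higher and 58 lower, all of them among the 563. The authors' deposited table for these libraries lists 284 genes with a q-value under 0.05, 163 higher and 121 lower, and 282 of them are also among the 563 with the same sign. The number of genes called in set 1 fell to 113 without shRPRD1B replicate 1, to 145 without shRPRD1B replicate 2 and to 403 without shScrambled replicate 1, and was 571 without shScrambled replicate 2. A group with 1 library left is then assumed to vary like the other.

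**Figure D1:**
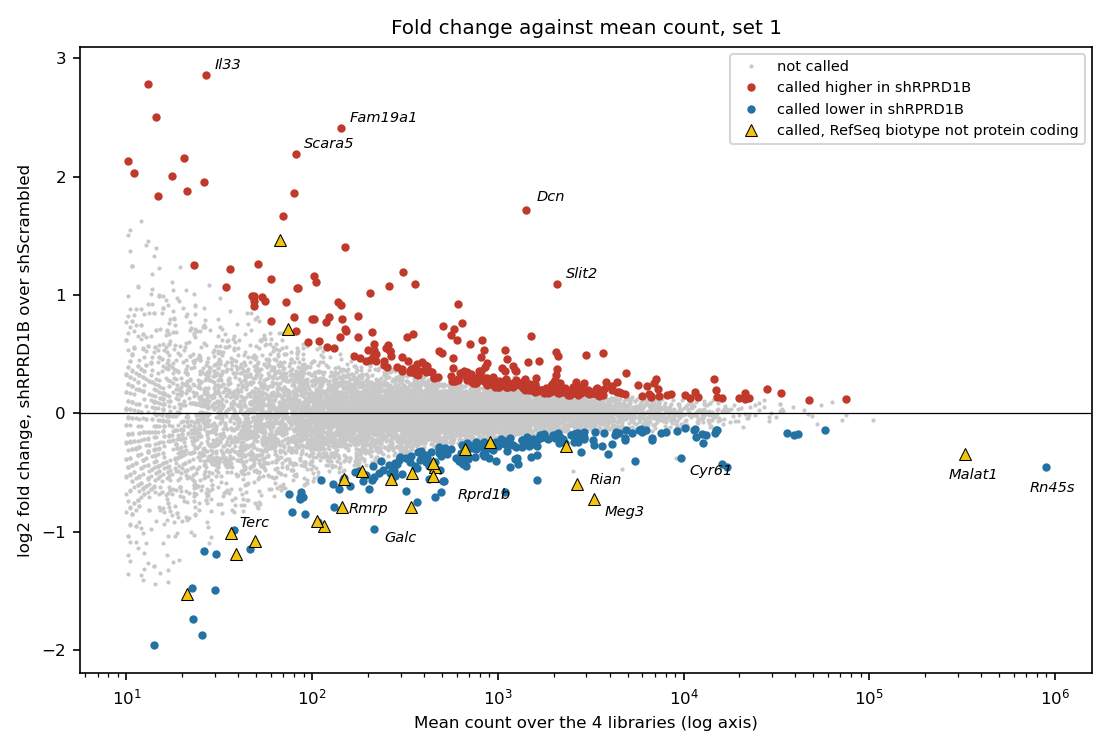
Fold change of each of the 11585 genes tested in set 1 (log2, shRPRD1B over shScrambled) against its mean count over the 4 libraries on a log axis. Red points were called higher and blue points lower, and triangles are called genes that RefSeq does not list as protein coding; most triangles lie below 0, and the largest rises, such as Fam19a1 and Scara5, have low to middling counts.

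Rprd1a, the closest paralog, had 15.1 and 15.3 CPM in shRPRD1B libraries and 15.5 and 16.9 CPM in shScrambled libraries, a log2 fold change of -0.09 ± 0.13 (adjusted p = 0.803). Rprd2 had 85.8 and 85.0 CPM in shRPRD1B libraries and 85.4 and 91.3 CPM in shScrambled libraries, a log2 fold change of -0.05 ± 0.07 (adjusted p = 0.796). These values do not show that either is unaltered. Among the 13 genes for RPRD relatives, related CTD-binding proteins and CTD phosphatases, 0 were called. The smallest adjusted p there was that of Ctdspl2, a CTD phosphatase-like gene, at -0.18 ± 0.07 (adjusted p = 0.0948). None of the 13 RNA polymerase II subunits was called, and their log2 fold changes ran from -0.06 to 0.29, the highest being Polr2i. None of the 27 CTD kinases and elongation factors was called. Hexim1, which holds the elongation kinase P-TEFb in an inactive complex, came nearest, at 22.9 and 19.5 CPM in shRPRD1B libraries and 16.6 and 15.9 CPM in shScrambled libraries (log2 fold change 0.38 ± 0.12, adjusted p = 0.05001, just above the threshold).

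**Figure D2:**
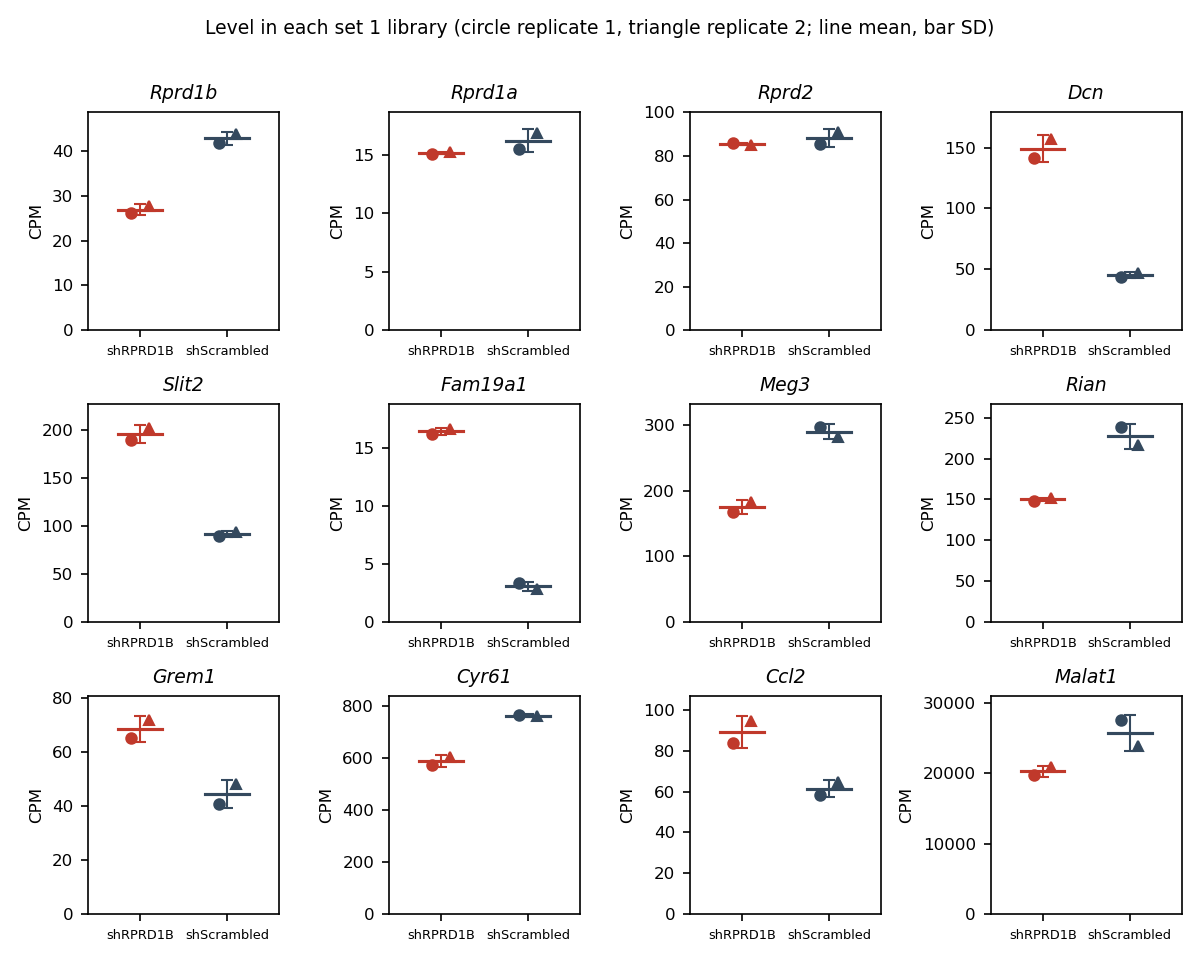
Level in CPM of 12 genes in each set 1 library, shRPRD1B in red on the left and shScrambled in dark grey on the right of each panel; circles are replicate 1, triangles replicate 2, the line is the mean and the bar the SD of 2 libraries, and every axis starts at 0. The groups stand apart for Rprd1b, Dcn, Slit2, Fam19a1, Meg3, Rian, Grem1, Cyr61, Ccl2 and Malat1. For Malat1 the shScrambled replicates, at 27593 and 23933 CPM, lie further from each other than the groups do (shRPRD1B replicate 2 at 20908 CPM).

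Among called genes whose counts averaged 50 or more, the largest rises included genes for secreted and cell surface proteins. Fam19a1, a secreted chemokine-like protein also named TAFA1, had 16.2 and 16.6 CPM in shRPRD1B libraries, against 3.34 and 2.82 CPM in shScrambled libraries, a log2 fold change of 2.41 ± 0.19 (adjusted p = 5.4e-24). Scara5, a scavenger receptor that takes up ferritin, had 10.4 and 7.97 CPM in shRPRD1B libraries and 2.18 and 1.81 CPM in shScrambled libraries (2.19 ± 0.24 on the log2 scale, adjusted p = 3.65e-14). Dcn, which codes for decorin, a small proteoglycan that coats collagen fibrils and binds TGF-beta, had 141 and 157 CPM in shRPRD1B libraries, against 43.3 and 47.0 CPM in shScrambled libraries. Its log2 fold change of 1.72 ± 0.07 had the smallest adjusted p of all genes, 9.21e-58, and it lies on chromosome 10 from 97479500 to 97518163. Slit2, the secreted ligand of Robo receptors, had 189.8 and 202 CPM in shRPRD1B libraries and 89.9 and 94.2 CPM in shScrambled libraries (1.09 ± 0.06 on the log2 scale, adjusted p = 2.94e-43). The calls of these 4 genes held when any 1 library was left out.

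The other large rises reached into intracellular signalling and transport. Rab6b, a small GTPase of Golgi transport, had 8.43 and 8.75 CPM in shRPRD1B libraries and 2.18 and 2.53 CPM in shScrambled libraries, a log2 fold change of 1.86 ± 0.23. Pde1a, a calmodulin-dependent phosphodiesterase that breaks down cyclic nucleotides, had 8.15 and 6.4 CPM in shRPRD1B libraries and 1.89 and 2.68 CPM in shScrambled libraries (1.67 ± 0.24). Rgs17, which speeds GTP hydrolysis by G-alpha subunits, had 14.1 and 15.7 CPM in shRPRD1B libraries and 6.53 and 4.70 CPM in shScrambled libraries (1.41 ± 0.17). All 3 stood higher in both shRPRD1B libraries, and their adjusted p-values ran from 1.29e-11 to 3.08e-08. Flrt3, an adhesion protein with leucine-rich repeats, rose by 1.198 ± 0.12, Casp4, the inflammatory caspase also known in mouse as caspase-11, by 1.16 ± 0.20, and Ngef, a guanine nucleotide exchange factor that acts below Eph receptors, by 1.09 ± 0.11. Cpne8, a calcium-dependent membrane-binding copine, and Slc27a1, a fatty acid transport protein, rose by 1.07 ± 0.13 and 1.06 ± 0.21. Flrt3 lies within Macrod2, whose reads cannot be told apart from its own without strand. Ndst3, a sulfotransferase of heparan sulfate, rose by 1.14 ± 0.25 but was not called without shRPRD1B replicate 1 (adjusted p = 0.292). Ltbp4, a latent TGF-beta binding protein, rose by 1.11 ± 0.19 but was not called without shRPRD1B replicate 2 (adjusted p = 0.0672). Nov, a secreted CCN protein, rose by 1.26 ± 0.28, with that call lost without shScrambled replicate 1 or shRPRD1B replicate 1 (adjusted p up to 0.158).

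At the same counts the largest falls were smaller in size than the largest rises and included Meg3 and Rtl1 of an imprinted region and the RNA gene Rmrp, which are described with the noncoding RNAs. Galc, the lysosomal enzyme that cleaves galactosylceramide, had 10.9 and 9.60 CPM in shRPRD1B libraries, against 18.1 and 22.3 CPM in shScrambled libraries, a log2 fold change of -0.98 ± 0.14 (adjusted p = 1.06e-08). Papss2, which makes the sulfate donor used to sulfate proteoglycans, had 23.6 and 25.7 CPM in shRPRD1B libraries and 43.9 and 36.3 CPM in shScrambled libraries (-0.70 ± 0.10, adjusted p = 3.12e-09). Both were called when any 1 library was left out. Tnik, a kinase that acts with TCF factors in Wnt signalling, fell by 0.92 on the log2 scale, with 6.41 and 4.18 CPM in shRPRD1B libraries and 9.22 and 10.7 CPM in shScrambled libraries, and its call was lost without shRPRD1B replicate 2 (adjusted p = 0.188). The remaining falls by size were genes at low counts. Slc35g1, Jph1, Ikzf2, Has3, Ankrd6, Star and Scrn3 had log2 fold changes between -0.85 and -0.66 with adjusted p-values from 0.00217 to 0.0447. Jph1 codes for a junctophilin that ties the endoplasmic reticulum to the plasma membrane, Ikzf2 for the transcription factor Helios, Has3 for a hyaluronan synthase and Star for a carrier of cholesterol into mitochondria. Each of these 7 calls was lost without at least 1 of the 4 libraries, with adjusted p up to 0.499 for Ikzf2, 0.292 for Jph1, 0.226 for Has3, 0.426 for Star, 0.398 for Scrn3, 0.375 for Ankrd6 and 0.210 for Slc35g1.

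**Figure D3:**
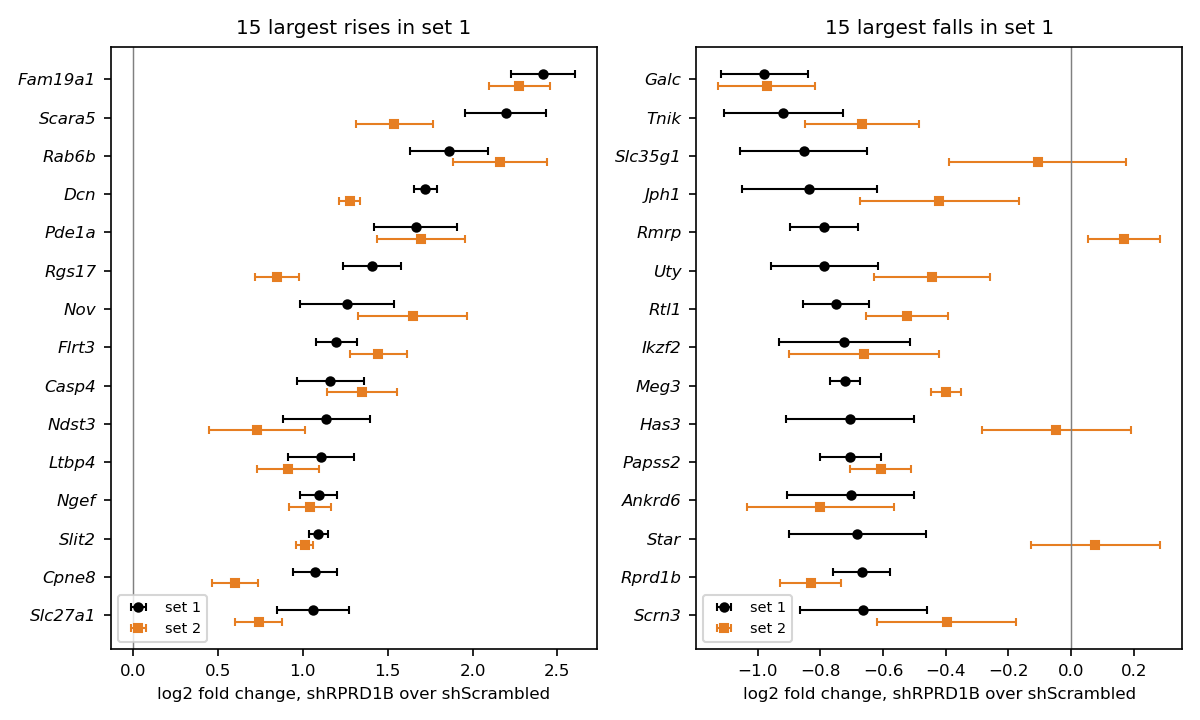
Log2 fold change (shRPRD1B over shScrambled) of the 15 largest rises on the left and the 15 largest falls on the right, chosen among set 1 calls whose count averaged 50 or more; black circles are set 1, orange squares the same genes in set 2, and bars are SE. All 15 rises are above 0 in set 2 as well, while Rmrp and Star among the falls lie above 0 there.

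Calls per gene list here and below stand beside 2.68% called higher and 2.18% called lower over all genes tested. Matrix genes moved in both directions. Among 7 tested small leucine-rich proteoglycans, 2 were called higher and 1 lower, with a median log2 fold change of 0.18 beside 0.00 over all genes tested. That median was 0.48 without shScrambled replicate 1, 0.34 without shScrambled replicate 2, 0.44 for members averaging 50 or more counts and 0.05 with no filter on low counts. Beside Dcn, Ogn, osteoglycin, had 18.5 and 20.5 CPM in shRPRD1B libraries and 15.5 and 13.2 CPM in shScrambled libraries (0.44 ± 0.13, adjusted p = 0.0206), a call lost without any of 3 libraries (adjusted p up to 0.329). Bgn, biglycan, was lower, at 2639 and 2773 CPM in shRPRD1B libraries, against 2976 and 3114 CPM in shScrambled libraries (-0.17 ± 0.04, adjusted p = 0.000699), and this call was lost without shRPRD1B replicate 1 (adjusted p = 0.295). Ogn overlaps Cenpp. Decorin and biglycan, closely related members of the family, stood in opposite directions in the same libraries.

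Of 18 collagen chains 1 was called higher and 3 lower, with a median of -0.05 (-0.09 to -0.03 over the alternatives). Col3a1, a fibrillar chain, had 168 and 169 CPM in shRPRD1B libraries, against 116 and 118 CPM in shScrambled libraries (0.52 ± 0.05, adjusted p = 5.13e-15). The 3 lower chains were Col6a1, Col6a2 and Col6a3, which assemble into the microfibrils of collagen VI. Their log2 fold changes were -0.26 ± 0.05, -0.27 ± 0.05 and -0.16 ± 0.04. Col6a1 had 261 and 264 CPM in shRPRD1B libraries and 305 and 321 CPM in shScrambled libraries. The calls of Col6a1 and Col6a2 were lost without shRPRD1B replicate 1 (adjusted p = 0.0567 and 0.0899) and that of Col6a3 without any of 3 libraries (adjusted p up to 0.320), while Col3a1 was called when any 1 library was left out.

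Among 27 matrix glycoproteins and crosslinking enzymes, 2 were called higher and 4 lower, and 20 of the 27 were below 0 (median -0.06, and -0.09 to -0.03 over the alternatives). Lox, which crosslinks collagen and elastin, had 2332 and 2453 CPM in shRPRD1B libraries and 2708 and 2654 CPM in shScrambled libraries (-0.16 ± 0.04, adjusted p = 0.00123). Fbln5, an elastic fibre protein, fell by 0.22 ± 0.05, and Lamb1, a laminin chain, by 0.20 ± 0.05. Thbs2, a matricellular thrombospondin, rose by 0.22 ± 0.05 (adjusted p = 0.00031), with 307 and 301 CPM in shRPRD1B libraries and 255 and 266 CPM in shScrambled libraries. The call of Lox was lost without shRPRD1B replicate 1, and that of Thbs2 without either shRPRD1B library. That of Fbln5 was lost without shScrambled replicate 1 or either shRPRD1B library. That of Lamb1 was lost without shScrambled replicate 1 or shRPRD1B replicate 2. Among 17 metalloproteinases and inhibitors, Adam12, a membrane metalloproteinase, was called lower and Timp2, an inhibitor, was called higher. Adam12 had 27.9 and 29.7 CPM in shRPRD1B libraries, against 43.2 and 42.5 CPM in shScrambled libraries (-0.57 ± 0.09, adjusted p = 4.7e-07). Timp2 had a log2 fold change of 0.14 ± 0.04, with its call lost without any of 3 libraries (adjusted p up to 0.387).

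Heparan sulfate chains, which hold growth factors at the cell surface, are built by a series of enzymes, and 19 of their genes were tested, with 2 called higher and 3 lower. Gpc1, a core protein of the glypican family, had 83.5 and 96.2 CPM in shRPRD1B libraries and 63.4 and 67.2 CPM in shScrambled libraries (0.46 ± 0.07, adjusted p = 9.38e-08). Sulf1, a sulfatase that trims finished chains outside the cell, had 29.1 and 28.6 CPM in shRPRD1B libraries, against 45.0 and 40.8 CPM in shScrambled libraries (-0.57 ± 0.09, adjusted p = 4.66e-07). Both calls held when any 1 library was left out. Glce, the epimerase of the chain, and Hs2st1, a sulfotransferase, were lower by 0.28 ± 0.06 and 0.17 ± 0.05, and these calls were lost without shRPRD1B replicate 2 (adjusted p = 0.209 for Glce, and up to 0.337 for Hs2st1 over 3 libraries).

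Genes of the TGF-beta family and its targets gave 1 higher and 3 lower calls among 28. Grem1, a secreted antagonist of BMPs, had 65.1 and 71.9 CPM in shRPRD1B libraries and 40.9 and 48.3 CPM in shScrambled libraries (0.62 ± 0.08, adjusted p = 1.6e-10). Ltbp1 and Ltbp2, latent TGF-beta binding proteins, fell by 0.22 ± 0.04 and 0.28 ± 0.08, in contrast to Ltbp4 above. The call of Ltbp1 was lost without shRPRD1B replicate 2 (adjusted p = 0.0752) and that of Ltbp2 without any of 3 libraries (adjusted p up to 0.399), while Grem1 was called when any 1 library was left out.

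Among targets of the actin-regulated factors SRF and YAP, more genes were called lower than higher. These factors switch on genes of the contractile state and of the CCN matricellular family, YAP through TEAD proteins that bind DNA. Cyr61, a CCN gene and a well known YAP target, had 572 and 605 CPM in shRPRD1B libraries, against 767 and 761 CPM in shScrambled libraries (-0.38 ± 0.04, adjusted p = 4.93e-14). Ctgf, of the same family, had 799 and 862 CPM in shRPRD1B libraries and 988 and 883 CPM in shScrambled libraries (-0.17 ± 0.04, adjusted p = 0.00464), a call lost without any of 3 libraries (adjusted p up to 0.4615). Of 5 CCN genes tested 2 were called lower and 1, Nov, higher. Of 23 contractile genes and SRF or YAP targets 4 were called lower and 1 higher, 17 of the 23 were below 0, and the median was -0.09. Over all genes tested 2.18% were called lower and 2.68% higher. Amotl2, which binds and restrains YAP and is itself a YAP target, had 77.7 and 77.6 CPM in shRPRD1B libraries, against 104 and 96.8 CPM in shScrambled libraries (-0.37 ± 0.06, adjusted p = 6.54e-06). Tagln, transgelin, which binds actin in smooth muscle, fell by 0.44 ± 0.08, Acta2, smooth muscle actin, by 0.25 ± 0.04, and Ankrd1, a stretch-responsive repeat protein, by 0.23 ± 0.07. Acta2 had 784 and 851 CPM in shRPRD1B libraries and 1023 and 918 CPM in shScrambled libraries. Amotl2 and Cyr61 were called when any 1 library was left out. Without shRPRD1B replicate 1 the calls of Acta2, Tagln and Ankrd1 were lost, at adjusted p of 0.171, 0.0597 and 0.380, and that of Ankrd1 also without shRPRD1B replicate 2 or shScrambled replicate 2. Tagln overlaps Pcsk7.

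The promoters of 4 of these lower genes are shown because each holds the core letters of a TEAD site, GGAATG on either strand, in the 250 bases before and 50 after the annotated start. They are from RefSeq GRCm38.p6, read 5′ to 3′ on the strand of the gene, with the matching letters in capitals (CATTCC is the same site on the other strand). They lie at chr3:145649936-145650235 (minus strand) for Cyr61, chr9:102717554-102717853 (plus strand) for Amotl2, chr19:36119795-36120094 (minus strand) for Ankrd1 and chr19:34255324-34255623 (minus strand) for Acta2.
Cyr61: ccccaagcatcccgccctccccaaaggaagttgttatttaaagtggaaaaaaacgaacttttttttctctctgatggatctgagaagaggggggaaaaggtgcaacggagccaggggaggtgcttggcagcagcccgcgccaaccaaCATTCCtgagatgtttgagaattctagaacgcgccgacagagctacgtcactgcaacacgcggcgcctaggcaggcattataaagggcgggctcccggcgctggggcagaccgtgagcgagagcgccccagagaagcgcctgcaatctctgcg
Amotl2: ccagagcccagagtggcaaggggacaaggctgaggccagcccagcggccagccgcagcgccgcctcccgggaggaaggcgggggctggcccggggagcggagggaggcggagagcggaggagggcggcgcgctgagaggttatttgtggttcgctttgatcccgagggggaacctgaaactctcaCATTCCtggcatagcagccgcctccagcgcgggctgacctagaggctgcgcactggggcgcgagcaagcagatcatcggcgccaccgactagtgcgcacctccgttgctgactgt
Ankrd1: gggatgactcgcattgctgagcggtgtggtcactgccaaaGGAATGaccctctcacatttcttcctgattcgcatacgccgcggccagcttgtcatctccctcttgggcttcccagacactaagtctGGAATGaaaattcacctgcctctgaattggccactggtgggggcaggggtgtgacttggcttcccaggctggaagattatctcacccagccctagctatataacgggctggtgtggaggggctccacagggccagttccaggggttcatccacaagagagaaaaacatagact
Acta2: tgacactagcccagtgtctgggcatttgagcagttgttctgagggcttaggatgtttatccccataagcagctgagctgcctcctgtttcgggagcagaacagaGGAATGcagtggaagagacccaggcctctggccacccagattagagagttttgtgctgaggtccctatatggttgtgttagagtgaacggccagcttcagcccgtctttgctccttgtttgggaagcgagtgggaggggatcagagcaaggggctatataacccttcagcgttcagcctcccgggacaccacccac
The letters occurred in 13 of 23 promoters (56.5%) of the contractile list, in 44 of 232 promoters (19%) of genes called lower, in 39 of 337 (11.6%) of genes called higher and in 1414 of 11754 (12%) of all promoters of tested genes, for 9259 genes with a promoter in the table. The CArG box, the site of SRF, occurred in 4 of the 23 promoters (17.4%) and in 1.36% of all. The contractile list was drawn from known targets, so such matches are part of what its genes are; a match is a description of these letters and not a measured binding site.

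Guidance molecules, which steer axons and also act in fibroblasts and vessels, gave 5 higher calls and 0 lower among 32 tested genes, with a median of 0.06 (0.01 to 0.10 over the alternatives). Beside Slit2 and Flrt3, Efnb2, an ephrin ligand, had 152 and 158 CPM in shRPRD1B libraries and 131 and 129 CPM in shScrambled libraries (0.26 ± 0.05, adjusted p = 0.000333). Nrp2, a co-receptor for semaphorins and VEGF, rose by 0.23 ± 0.06 (adjusted p = 0.00268). The call of Efnb2 was lost without shRPRD1B replicate 2 (adjusted p = 0.121) and that of Nrp2 without shScrambled replicate 1 or shRPRD1B replicate 1 (adjusted p up to 0.380). The dendritic protein gene Map2 was called, the only call among 3 tested of 12 listed neural markers. It had 14.0 and 17.04 CPM in shRPRD1B libraries and 8.56 and 8.97 CPM in shScrambled libraries (0.83 ± 0.15, adjusted p = 2.49e-05, and 0.0663 without shRPRD1B replicate 2). Of those markers 3 were at 0 in all 4 libraries, and their summed level was 53.7 and 56.1 CPM in shRPRD1B libraries and 43.0 and 39.9 CPM in shScrambled libraries, most of it Syn1, Snap25 and Map2.

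Growth factor and receptor genes were called in both directions, 3 higher and 4 lower of 31. Pdgfra, the receptor of PDGF-A and a fibroblast marker, had 246 and 239.9 CPM in shRPRD1B libraries, against 171 and 173 CPM in shScrambled libraries (0.50 ± 0.05, adjusted p = 1.9e-16). Dusp4, a phosphatase that shuts off MAP kinases, had 59.0 and 72.1 CPM in shRPRD1B libraries and 43.0 and 51.2 CPM in shScrambled libraries (0.48 ± 0.08, adjusted p = 1.54e-05). Hbegf, a ligand of the EGF receptor, and Igf1r, the receptor of IGFs, were lower by 0.25 ± 0.05 and 0.21 ± 0.04. Pdgfra was called when any 1 library was left out. The call of Dusp4 was lost without shRPRD1B replicate 2 (adjusted p = 0.146), and those of Hbegf and Igf1r without shRPRD1B replicate 1 (adjusted p = 0.241 and 0.227).

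Wnt genes gave 2 higher and 3 lower calls of 17. The 2 that rose, Dkk2 and Sfrp1, code for secreted regulators of Wnt signalling. Dkk2 had 7.32 and 8.23 CPM in shRPRD1B libraries and 3.99 and 3.47 CPM in shScrambled libraries (1.06 ± 0.21, adjusted p = 0.000172). Sfrp1 rose by 0.54 ± 0.14. Wnt5a, a ligand of noncanonical signalling, fell by 0.44 ± 0.11, and Myc, the growth-promoting transcription factor and a Wnt target, had 202 and 219.96 CPM in shRPRD1B libraries, against 238 and 255 CPM in shScrambled libraries (-0.22 ± 0.05, adjusted p = 0.00056). Each of these 4 calls was lost without at least 1 library, Dkk2 without shRPRD1B replicate 2 (adjusted p = 0.0537), Myc without shRPRD1B replicate 1 (adjusted p = 0.295), Sfrp1 without shScrambled replicate 1 or shRPRD1B replicate 1 (up to 0.293), and Wnt5a without shScrambled replicate 1 or shRPRD1B replicate 2 (up to 0.445). Boc, a Hedgehog co-receptor, was the call among 9 Hedgehog genes. It rested on raw counts of 13 and 10 in shRPRD1B libraries and 29 and 50 in shScrambled libraries (-1.87 ± 0.40), and the call was lost without any of 3 libraries (adjusted p up to 0.123).

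Chemokine and cytokine genes were among the rises. Of 19 NF-kB targets and cytokines 3 were called higher and 1 lower, 15 of the 19 were above 0, and the median was 0.18 (0.33 without shRPRD1B replicate 1). Ccl2, a chemokine that draws monocytes, had 83.9 and 94.9 CPM in shRPRD1B libraries, against 58.5 and 64.6 CPM in shScrambled libraries (0.54 ± 0.07, adjusted p = 4.68e-10). Ccl7, a related chemokine from the same cluster, had 13.4 and 11.7 CPM in shRPRD1B libraries and 6.02 and 7.02 CPM in shScrambled libraries (0.94 ± 0.17, adjusted p = 1.6e-05). Il33, an alarmin released from damaged cells, rested on few reads, with raw counts of 47 and 48 in shRPRD1B libraries and 4 and 8 in shScrambled libraries (2.86 ± 0.44, adjusted p = 1.55e-07). All 3 were called when any 1 library was left out. Ptgs2, the inducible cyclooxygenase, was lower, at 2459.8 and 2672 CPM in shRPRD1B libraries and 3071 and 2751 CPM in shScrambled libraries (-0.18 ± 0.04, adjusted p = 0.00245). The call of Ptgs2 was lost without shScrambled replicate 1 or shRPRD1B replicate 1, and DESeq2 did not make it (adjusted p = 0.665). None of 17 interferon response and antigen presentation genes was called, with Irf1 nearest at 0.78 ± 0.27 (adjusted p = 0.0653). The leukocyte markers gave 0 calls of 3 tested, and Cd14 was the nearest at 0.76 ± 0.30 (adjusted p = 0.141). Their summed level was 9.69 and 10.9 CPM in shRPRD1B libraries and 9.22 and 8.11 CPM in shScrambled libraries.

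Among 24 immediate early genes, which respond to serum and stress within minutes, 2 were called higher and 1 lower. Nr4a2, an orphan nuclear receptor, had 66.1 and 72.7 CPM in shRPRD1B libraries and 52.2 and 50.9 CPM in shScrambled libraries (0.43 ± 0.08, adjusted p = 7.17e-06). Klf4 rose by 0.25 ± 0.06 (adjusted p = 0.00482). Egr1, a zinc finger factor induced by SRF, was lower, with 221 and 260.5 CPM in shRPRD1B libraries and 295 and 317 CPM in shScrambled libraries (-0.34 ± 0.05, adjusted p = 1.54e-05). DESeq2 did not call Egr1 (adjusted p = 0.235). The call of Nr4a2 was lost without shRPRD1B replicate 2 (adjusted p = 0.0549), that of Egr1 without shRPRD1B replicate 1 (adjusted p = 0.0909) and that of Klf4 without any of 3 libraries (up to 0.316). Ahr, the dioxin receptor, rose by 0.62 ± 0.09 (adjusted p = 3.87e-09), with 52.7 and 48.6 CPM in shRPRD1B libraries and 32.9 CPM in each shScrambled library.

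More long noncoding RNAs were called lower than higher. This grouping was made after the values were seen. Of 364 tested genes that RefSeq lists as long noncoding RNA, 17 were called lower and 1 higher, and their median log2 fold change was -0.16, against 0.01 for 11058 protein coding genes, of which 309 were higher and 229 lower. Over all 464 tested genes of any other type than protein coding, 21 were lower and 2 higher, and 30 small nucleolar RNA entries had 0 calls and a median of -0.33. In the imprinted cluster on chromosome 12, Meg3, a maternally expressed noncoding RNA, had 168 and 183 CPM in shRPRD1B libraries, against 298 and 282 CPM in shScrambled libraries (-0.72 ± 0.05, adjusted p = 1.2e-29). Rian, which follows it in the cluster and hosts small nucleolar RNAs, had 149 and 151 CPM in shRPRD1B libraries and 238 and 217 CPM in shScrambled libraries (-0.60 ± 0.05, adjusted p = 4.31e-21). Rtl1, a gene derived from a retrotransposon that is transcribed from the other parental chromosome, had 17.98 and 20.4 CPM in shRPRD1B libraries and 32.3 and 32.4 CPM in shScrambled libraries (-0.75 ± 0.11, adjusted p = 7.97e-09). RefSeq annotates Rtl1 as overlapping both Meg3 and Rian, so that these reads cannot be told apart without strand. All 3 were called when any 1 library was left out. Dlk1, the protein coding gene at the paternal side of the cluster, named after its value was seen, was not called (-0.02 ± 0.04, adjusted p = 0.900).

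The promoter of Meg3, the called noncoding RNA with the smallest p, is shown for its start region, with the letters of a TATA box (TATAAA on either strand, here in overlapping matches on both) in capitals. It is 1 of 2 listed by RefSeq GRCm38.p6 for the gene and lies at chr12:109540746-109541045 on the plus strand.
Meg3: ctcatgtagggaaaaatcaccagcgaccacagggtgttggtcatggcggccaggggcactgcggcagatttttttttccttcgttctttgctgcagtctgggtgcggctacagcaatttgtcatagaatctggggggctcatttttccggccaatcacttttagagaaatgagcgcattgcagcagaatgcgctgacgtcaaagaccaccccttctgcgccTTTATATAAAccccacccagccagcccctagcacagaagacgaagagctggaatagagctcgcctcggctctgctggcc
The same letters occurred in 20 of 232 promoters (8.62%) of genes called lower and in 7.13% of all promoters of tested genes.

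Over the whole list of imprinted genes, 18 were tested, 2 were called higher and 5 lower. The median was -0.16 in set 1, and it was -0.06 without shScrambled replicate 1, -0.08 among members averaging 50 or more counts and 0.01 in set 2. Peg3, a paternally expressed zinc finger gene, had 45.0 and 37.0 CPM in shRPRD1B libraries and 28.2 and 29.4 CPM in shScrambled libraries (0.51 ± 0.09, adjusted p = 2.04e-05, and 0.130 without shRPRD1B replicate 1). It overlaps its antisense gene Peg3as. Grb10, an adaptor that restrains growth factor receptors, was lower by 0.19 ± 0.04, a call lost without any of 3 libraries (adjusted p up to 0.193).

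The nuclear RNA Malat1 had 19800.0 and 20908 CPM in shRPRD1B libraries, against 27593 and 23933 CPM in shScrambled libraries (-0.34 ± 0.05, adjusted p = 0.000288). DESeq2 did not call Malat1 in set 1 (adjusted p = 0.103), and in set 2 it stood at 0.01 ± 0.05 (adjusted p = 0.963). Rmrp, the RNA of the RNase MRP enzyme that cuts ribosomal precursor RNA, had 17.4 and 17.9 CPM in shRPRD1B libraries and 32.4 and 28.7 CPM in shScrambled libraries (-0.79 ± 0.11, adjusted p = 4.7e-09). Rn45s, the ribosomal precursor itself, was lower by 0.46 ± 0.07 (adjusted p = 0.00505). These 3 are not messenger RNAs, and each was called when any 1 library was left out, but in a fit of all 8 libraries Rn45s was not (adjusted p = 0.415). Terc, the telomerase RNA, named after its value was seen, was also called lower (-1.01 ± 0.31, adjusted p = 0.0341). Leaving out any 1 of the 4 libraries lost the call, with log2 fold changes from -1.07 to -0.95. DESeq2 did not call Terc (adjusted p = 0.414), and in set 2 it stood at 0.20 ± 0.33 (adjusted p = 0.836). Of other noncoding RNAs looked up, Neat1, Rpph1, Kcnq1ot1, Gas5 and Snhg1 were not called in set 1 (adjusted p from 0.185 to 0.880). The count of long noncoding RNAs called lower in set 1 was 3 without shRPRD1B replicate 1, 10 without shRPRD1B replicate 2, 11 without shScrambled replicate 1, and 5 by DESeq2, while the median stayed between -0.19 and -0.10 under every setting tried. The share of counts in Rn45s moved with the groups in the same direction as these RNAs, and its part in the result was not tested. With Rn45s removed from totals and test, 17 long noncoding RNAs were again called lower. This cannot decide the part of Rn45s, because its removal hardly moved the scaling. The median of the long noncoding RNAs was -0.16 with and without it.

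Some genes of energy metabolism rose slightly. Of 30 nuclear genes for oxidative phosphorylation subunits, 5 were called higher and 0 lower, 25 of the 30 were above 0, and the median was 0.06 (0.09 without shScrambled replicate 1). Atp5b, the catalytic subunit of ATP synthase, had 2515 and 2434 CPM in shRPRD1B libraries, against 2236 and 2167 CPM in shScrambled libraries (0.17 ± 0.04, adjusted p = 0.000834). Ndufa9, of complex I, rose by 0.28 ± 0.07, Cyc1, cytochrome c1, by 0.27 ± 0.06, and Atp5a1, of ATP synthase, by 0.16 ± 0.04. All are small next to the rises described above. All 4 calls were lost without shRPRD1B replicate 2, at adjusted p up to 0.231 for Atp5b, 0.257 for Ndufa9, 0.450 for Cyc1 and 0.254 for Atp5a1. Atp5a1 overlaps Haus1. Of 26 glycolysis and hypoxia genes 1, the glucose transporter gene Slc2a1, was called, lower by 0.14 ± 0.04, a call lost without either shRPRD1B library (adjusted p up to 0.443).

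Iron genes gave 3 higher calls and 1 lower of 17. Beside the ferritin receptor gene Scara5, Fth1, the ferritin heavy chain that stores iron, had 2099 and 2102 CPM in shRPRD1B libraries, against 1789.7 and 1842 CPM in shScrambled libraries (0.21 ± 0.04, adjusted p = 1.28e-05). Tfrc, the transferrin receptor, rose by 0.16 ± 0.04. Cp, ceruloplasmin, a ferroxidase needed for iron export, was lower, with 28.6 and 28.5 CPM in shRPRD1B libraries and 39.3 and 40.2 CPM in shScrambled libraries (-0.47 ± 0.09, adjusted p = 7.89e-05). Cp overlaps Hps3. The calls of Scara5 and Cp held when any 1 library was left out, that of Fth1 was lost without shRPRD1B replicate 1 (adjusted p = 0.0536), and that of Tfrc without either shRPRD1B library (up to 0.352).

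Of 25 NRF2 targets and glutathione genes, 3 were called higher and 0 lower. Gsta4, a glutathione transferase that clears lipid aldehydes, had 132 and 136 CPM in shRPRD1B libraries and 97.5 and 99.7 CPM in shScrambled libraries (0.44 ± 0.06, adjusted p = 5.78e-10), called when any 1 library was left out. Slc7a11, the cystine transporter, which is also the 1 call among 25 stress response genes, rose by 0.37 ± 0.10, a call lost without any 1 of the 4 libraries (adjusted p from 0.0654 to 0.335). Among 34 lysosomal genes 2 were higher and 1, Galc, lower. Ctsl, the protease cathepsin L, had 1134 and 1104 CPM in shRPRD1B libraries, against 911 and 919 CPM in shScrambled libraries (0.29 ± 0.04, adjusted p = 1.49e-09), and was called when any 1 library was left out. Ctsd, cathepsin D, rose by 0.18 ± 0.05, a call lost without either shRPRD1B library (adjusted p up to 0.443). Plin2, which coats lipid droplets, rose by 0.46 ± 0.09 (adjusted p = 3.23e-05), with 47.5 and 45.1 CPM in shRPRD1B libraries and 34.5 and 32.5 CPM in shScrambled libraries. In set 2 Plin2 stood at 0.04 ± 0.07 (adjusted p = 0.858). Elovl6, which lengthens fatty acids, fell by 0.22 ± 0.06, and the cholesterol synthesis genes Lss and Hsd17b7 rose by 0.19 ± 0.06 and 0.16 ± 0.05, the only calls among 22 cholesterol genes. The calls of Elovl6, Lss and Hsd17b7 were lost without 3 or 4 of the libraries in turn (adjusted p up to 0.180, 0.578 and 0.392).

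Of 30 genes of the G1/S transition and replication, Gins2, a subunit of the replicative helicase complex, was higher (0.25 ± 0.07, adjusted p = 0.0220) and Ccne2, cyclin E2, lower (-0.32 ± 0.10, adjusted p = 0.0244). Aurkb, the mitotic kinase Aurora B, was the call among 25 G2/M genes, at 80.4 and 73.0 CPM in shRPRD1B libraries and 95.1 and 89.4 CPM in shScrambled libraries (-0.27 ± 0.07, adjusted p = 0.00421). All 3 calls were lost without either shRPRD1B library, with adjusted p up to 0.285, 0.216 and 0.316. Among 22 p53 targets, Mdm2, the ligase that degrades p53, was higher (0.19 ± 0.05), while Ei24, Btg2 and Zmat3 were lower by 0.40 ± 0.08, 0.37 ± 0.08 and 0.17 ± 0.05. The calls of Ei24 and Btg2 were lost without shRPRD1B replicate 1 (adjusted p = 0.119 and 0.142), and those of Mdm2 and Zmat3 without any of 3 libraries (adjusted p up to 0.252 and 0.296). Of 30 homologous recombination and Fanconi genes, 24 were below 0 with a median of -0.11, and 1 was called, Rad52, which loads the recombinase onto single strands in yeast (-0.40 ± 0.13, adjusted p = 0.0472), a call lost without any 1 of the 4 libraries (up to 0.408). Among 22 replication-dependent histone genes 1 was called, Hist1h1c, a linker histone, lower by 0.29 ± 0.08, a call lost without any of 3 libraries. Whether histone genes of similar sequence share reads was not tested. Of 30 cytosolic ribosomal protein genes 1 was called, Rplp1, lower by 0.18 ± 0.05, a call lost without either shRPRD1B library (adjusted p up to 0.238).

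Among abundant transcripts the called changes were small. Pabpc1, the poly(A)-binding protein, had 5422 and 5438 CPM in shRPRD1B libraries and 4898 and 5097 CPM in shScrambled libraries (0.12 ± 0.04, adjusted p = 0.0311). Npm1, nucleophosmin, had 3878 and 3852 CPM in shRPRD1B libraries, against 4227 and 4271 CPM in shScrambled libraries (-0.14 ± 0.04, adjusted p = 0.00929). Vim, the fibroblast filament protein vimentin, had 3471 and 3395 CPM in shRPRD1B libraries and 3251 and 3078 CPM in shScrambled libraries (0.12 ± 0.04, adjusted p = 0.0394). Ybx1 and Ywhae rose by 0.13 ± 0.04 and 0.12 ± 0.04. All 5 calls were lost without either shRPRD1B library, at adjusted p up to 0.385 for Pabpc1, 0.261 for Npm1, 0.464 for Vim, 0.449 for Ybx1 and 0.563 for Ywhae.

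The 4 tested genes of the Y chromosome were all lower. Ddx3y, an RNA helicase, had 59.4 and 60.1 CPM in shRPRD1B libraries, against 100.21 and 88.8 CPM in shScrambled libraries (-0.66 ± 0.07, adjusted p = 8.2e-15). Eif2s3y, a translation initiation factor subunit, had 17.7 and 17.2 CPM in shRPRD1B libraries and 29.5 and 25.5 CPM in shScrambled libraries (-0.66 ± 0.11, adjusted p = 4.95e-06). Uty fell by 0.79 ± 0.17 and Kdm5d by 0.51 ± 0.12, both of them members of histone demethylase families. The summed level of the listed Y genes was 98.9 and 99.6 CPM in shRPRD1B libraries and 161 and 149.95 CPM in shScrambled libraries. The calls of Uty and Kdm5d were lost without any of 3 libraries (adjusted p up to 0.0848 and 0.137), while those of Ddx3y and Eif2s3y held when any 1 library was left out. On the other chromosomes medians ran from -0.06 on chromosome 12 to 0.05 on chromosome 15. In set 2 the medians there were -0.07 and 0.03. The sign of the median differed between the sets only on chromosomes 4, 18 and X. The share of tested genes that were called ran from 2.58% on chromosome 17 to 7.65% on chromosome 10, beside 4.86% over all genes. Chromosome 12 had 4 higher and 16 lower calls among 415 tested genes (4.82%), and chromosome 11 had 20 and 40 among 921 (6.51%). More higher than lower calls were found on chromosome 15, with 27 and 7 among 453, on chromosome 10, with 32 and 11 among 562, on chromosome 2, with 29 and 10 among 921, on chromosome 6, with 25 and 12 among 556, and on chromosome 13, with 15 and 4 among 458. Whether copy number of whole chromosomes differed between the cells was not tested. The naming rule takes calls of both directions, so the directions of the named calls on these chromosomes cannot decide this. On chromosome 12 Galc, Meg3, Rian and Rtl1 were lower and Ahr and Tmem121 higher, on chromosome 10 Dcn was higher and Col6a1 and Col6a2 lower, and on chromosome 15 Nov and Cpne8 were higher and Myc lower.

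**Figure D4:**
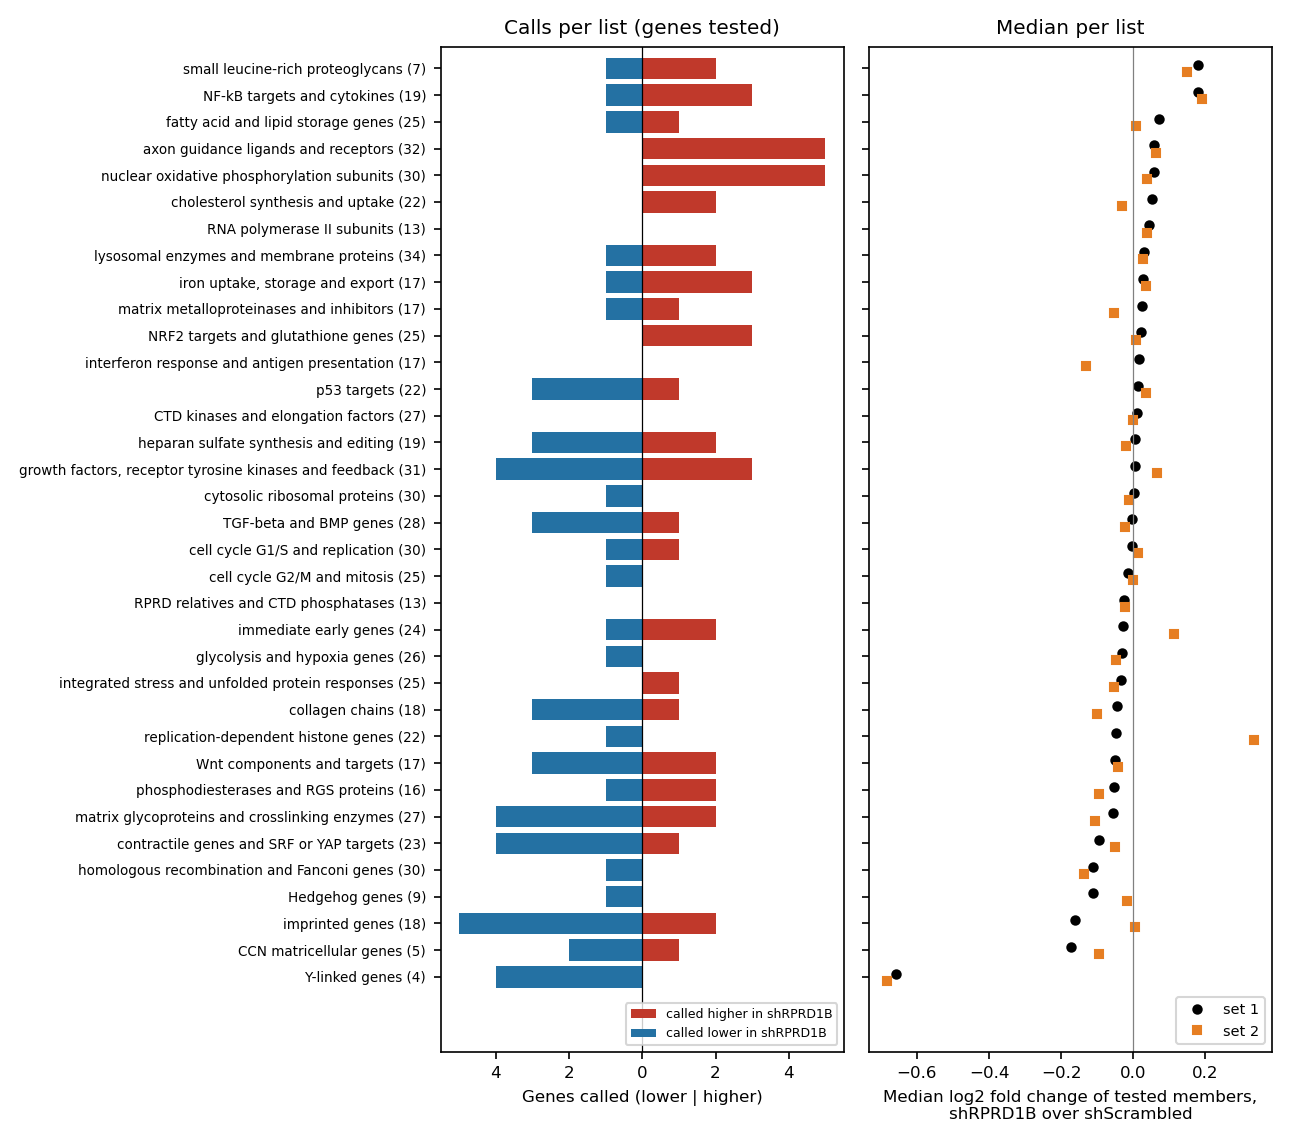
Gene lists ordered by their median fold change in set 1. On the left, bars give the number of members called higher (red, to the right) and lower (blue, to the left) with the number tested in brackets; on the right, the median log2 fold change of tested members in set 1 (black circles) and set 2 (orange squares). The Y-linked genes are lowest, at -0.66 in set 1, and histone genes stand furthest apart between the sets, at -0.05 in set 1, which turned to 0.08 without shScrambled replicate 2, and 0.33 in set 2.

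Set 2 shares no library with set 1, so its values for the set 1 genes are independent of how those were called. The labels do not say whether the sets come from the same selected cells. A difference between the cells other than the knockdown could then recur in both sets, which was not tested. Of 11427 genes tested in both sets, 561 were called in set 1 and 600 in set 2 (5.25% of those genes; 5.19% of all 11779 genes tested in set 2, 2.55% higher and 2.64% lower). A total of 202 genes were called in both with the same direction, 36.0% of the set 1 calls and 33.7% of the set 2 calls. The sign was the same in set 2 for 474 of the 561 (84.5%), against 58.9% of all genes tested in both. By DESeq2, which called 1.56% of genes in set 2, 82 genes were called in both.

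The share of set 1 calls that were called again in set 2 is given here by size, with no test of the trend. Of 194 set 1 calls under 0.25 on the log2 scale 52 were called the same way in set 2 (26.8%), of 227 between 0.25 and 0.5 there were 80 (35.2%), of 99 between 0.5 and 1 there were 50 (50.5%), and of 41 of at least 1 there were 20 (48.8%). Of the 15 largest rises 14 were called higher in set 2, the exception being Ndst3 (0.73 ± 0.28, adjusted p = 0.117). Of the 15 largest falls 7 were called lower in set 2: Galc (-0.97 ± 0.15), Rprd1b (-0.83 ± 0.10), Ankrd6, Tnik, Papss2, Rtl1 and Meg3. Gpc1, Sulf1, Glce and Hs2st1 of the heparan sulfate list and Meg3, Rian, Rtl1, Peg3 and Grb10 among imprinted genes were called in the same direction in both sets, as were 3 of 4 Y-linked genes, where Uty stood at -0.44 ± 0.18 in set 2 (adjusted p = 0.162). None of the 4 named oxidative phosphorylation genes was called in set 2, where Atp5b stood at 0.00 ± 0.04. In set 2, 2 long noncoding RNAs of 336 were called higher and 2 lower, and their median was 0.01.

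**Figure D5:**
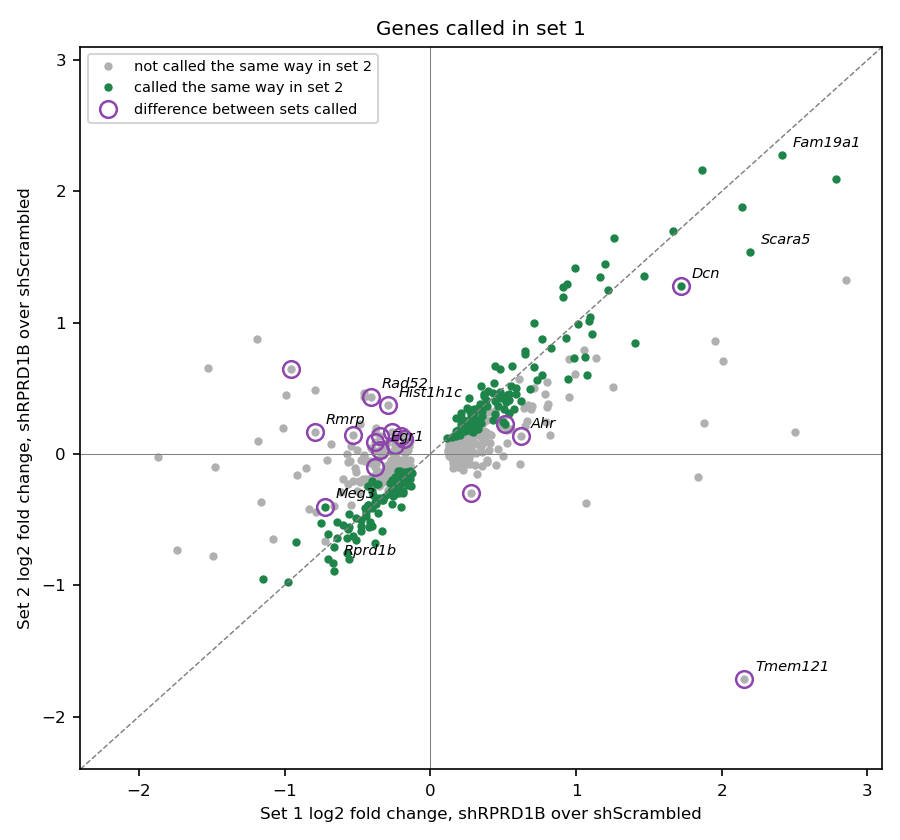
Log2 fold change (shRPRD1B over shScrambled) of genes called in set 1, in set 1 on the horizontal axis and in set 2 on the vertical axis, with the line of equal values dashed. Green points were called the same way in set 2, grey points were not, and purple rings mark genes whose effects differed between the sets; Tmem121 lies alone at 2.16 in set 1 and -1.72 in set 2.

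A gene called in 1 set and not in the other is not thereby shown to differ, so the difference itself was tested over all 8 libraries. Of 11723 genes, 29 had a different knockdown effect in set 1 than in set 2 (0.247%), 9 with a higher and 20 with a lower value in set 1, and 1013 had an unadjusted p under 0.05. Of 354 genes called in set 1 alone, 11 were among the 29. DESeq2 called 5 such differences. Dcn rose in both sets, by 1.72 in set 1 and 1.28 in set 2, and the difference of 0.44 ± 0.09 was called (adjusted p = 0.0145, but up to 0.148 without shScrambled replicate 1 or shRPRD1B replicate 2). Meg3 fell in both, and the difference of -0.33 ± 0.08 was called (adjusted p = 0.0342, but up to 0.289 without shScrambled replicate 1 or shRPRD1B replicate 1). Cyr61 had a log2 fold change of -0.38 in set 1 and -0.10 ± 0.04 in set 2 (adjusted p = 0.127 there), a difference of -0.29 ± 0.05 (adjusted p = 0.00355, and 0.0932 without shRPRD1B replicate 1). Rmrp was at -0.79 in set 1 and 0.17 ± 0.11 in set 2, a difference of -0.96 ± 0.16 (adjusted p = 0.00027). Rn45s stood at 0.46 ± 0.30 in set 2, and its difference of -0.92 ± 0.31 was not called (adjusted p = 0.532).

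Of the set 1 calls, 5 had the opposite call in set 2. Tmem121 had 2.23 and 2.35 CPM in shRPRD1B libraries of set 1, against 0.435 and 0.579 CPM in shScrambled libraries, a rise resting on raw counts of 32 and 36 against 6 and 8. In set 2 its counts were 8 and 14 in shRPRD1B libraries and 17 and 43 in shScrambled libraries. Hist1h1c stood at -0.29 in set 1 and 0.37 ± 0.10 in set 2, Rad52 at -0.40 and 0.44 ± 0.14, and Dhx38, a splicing helicase, at 0.28 ± 0.09 and -0.30 ± 0.10. The set 1 call of Dhx38 was lost without any 1 of the 4 libraries (adjusted p up to 0.261). The remaining gene is a numbered noncoding transcript.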

How the data were processed

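RNA-seq was made from total RNA of NIH3T3 cells, copied with random hexamers and sequenced as paired reads of 75 bases. The authors deposited raw counts per gene for 8 libraries in tables of 4, and the submitters' processing notes name the mouse build mm10; no source used here names the aligner or counter. The authors also deposited tables of their own comparison with log2 fold changes, q-values (p-values adjusted by the authors), and a mean signal per gene, which per the file headers is a mean count; only calls were taken from these.

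Counts were fitted with edgeR 4.0.16 (R 4.3.3), with TMM scaling and robust quasi-likelihood tests, each set alone, for genes whose counts averaged 10 or more over its 4 libraries. P-values were adjusted by Benjamini-Hochberg over all genes tested and called under 0.05. Fold changes are log2 of shRPRD1B over shScrambled, and an SE is the fold change divided by the root of its F statistic. CPM are scaled within each set. The difference between sets is an interaction in a fit of 8 libraries. DESeq2 1.42.0, other scalings and filters, a fold threshold of 1.2, a replicate block and leaving out each library were the alternatives. Totals were 13872603 to 15225103 counts per set 1 library. Replicates of a group differed by more than sampling noise (chi-square per degree of freedom 2.97 for shRPRD1B and 3.31 for shScrambled), so all were kept. Same-numbered libraries did not deviate together (correlation -0.00222 across genes), so they were not paired. The fitting was tested on simulated data.

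Named genes were the 15 largest rises and 15 largest falls among genes whose counts averaged 50 or more and whose groups did not overlap, the 6 called genes of each direction with most counts, up to 4 called genes of each list by p (the lowest p where none was called), the target and its relatives, and up to 6 genes of each direction that differed between sets; predicted genes known by a number enter the counts and are left unnamed. The values of 1 further gene that the rule takes are not reported here. The members and the gene lists were chosen with earlier results of these data known. Of 23393 names, 23233 were found in RefSeq GRCm38.p6, and 27 entries whose names had turned into dates were not matched to genes. Promoters are the RefSeq bases from 250 before to 50 after a start.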

Additional observations from a re-analysis of the deposited data

Results flagged for a closer look

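The knockdown effect differed between set 1 and set 2 by a test of the difference itself (interaction over 8 libraries, edgeR's quasi-likelihood test with Benjamini-Hochberg adjustment over 11723 genes) for 15 named genes. The values are log2 fold changes in set 1 minus those in set 2. The set 1 value was the higher one for Tmem121 (3.86), Dhx38 (0.57), Ahr (0.48), Dcn (0.44), Fam168b (0.28) and Ier5 (0.27). It was the lower one for Rmrp (-0.96), Rad52 (-0.85), Hist1h1c (-0.67), Hist1h1e (-0.62), Egr1 (-0.38), Tmsb10 (-0.34), Meg3 (-0.33), Rplp1 (-0.30) and Cyr61 (-0.29). Of the 15 differences, 4 were called when any 1 set 1 library was left out (Tmem121, Rmrp, Hist1h1c and Hist1h1e) and 4 by DESeq2 (Tmem121, Rmrp, Hist1h1e and Cyr61).

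The difference was lost without shRPRD1B replicate 1 for Ahr (adjusted p = 0.135), Egr1 (0.0717), Tmsb10 (0.0837) and Cyr61 (0.0932). It was lost without any of 3 libraries for Dhx38 (up to 0.103), Fam168b (0.126) and Ier5 (0.131), and without either of 2 for Dcn (0.148), Meg3 (0.289), Rad52 (0.166) and Rplp1 (0.131).

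Dcn and Meg3 were called in the same direction in both sets, so the sets differ there in size. Hist1h1e, Tmsb10, Fam168b and Ier5 were called in set 2 and not in set 1, where their log2 fold changes were -0.12, -0.04, 0.06 and 0.03. Ahr rose by 0.62 in set 1 and stood at 0.13 ± 0.06 in set 2 (adjusted p = 0.199). Some levels in shScrambled libraries also stood apart between the sets. Egr1 had 295 and 317 CPM in set 1 and 1995 and 1994 CPM in set 2. Ahr had 32.9 CPM in each library of set 1 and 95.3 and 92.6 CPM in set 2. Others stood closer, such as Cyr61 at 767 and 761 CPM against 931 and 904 CPM. What these levels mean for the differences was not tested. Whether the histone genes Hist1h1c and Hist1h1e share reads with genes of similar sequence was not tested. No group had enough libraries for a test of single libraries that stand apart.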

How the results depend on the processing

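The number of genes called in set 1 was 140 by DESeq2, 73 with a fold threshold of 1.2 and 113 to 571 when 1 library was left out, against 563; the cause was not tested. Genes called in set 2 numbered 184 by DESeq2, against 611. Set 1 calls also called in set 2 numbered 82 by DESeq2 and 76 to 178 when 1 library was left out, against 202. Genes with a difference between sets, set 1 minus set 2, numbered 50 with no filter on low counts, 5 by DESeq2 and 10 to 53 when 1 library was left out, against 29. Long noncoding RNAs called lower in set 1 numbered 5 by DESeq2, 4 with the fold threshold and 3 to 21 when 1 library was left out, against 17. Rprd1b in set 1 had a difference of -15.93 CPM in the exact permutation test (p = 0.333), which cannot pass with 2 libraries a group. Rprd2 in set 1 ran from -0.0957 to 0.000274 and Tnnt2 in set 1 from -0.0201 to 0.143 when 1 library was left out, neither of them called. With the replicate block, which the pairing check did not favour, genes called in set 1 numbered 655, including all 563, the difference between sets 39, and Rprd1b stood at -0.67 (adjusted p = 4.84e-10). Of 118 named calls other than Rprd1b, 40 held when any 1 library was left out and 60 were called by DESeq2. With 2 libraries a group, small changes and low counts are the least certain.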
